A study of Sus scrofa with 13 samples.

Results

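Livers that had received human mesenchymal stromal cells (8 libraries) differed in how many porcine genes had any read. Infused livers with few genes above 0 reads were set against the others, with the limit between 15460 and 15831 genes: Arterial 1, Portal 1 and Portal 4 (3 few-gene livers) against Arterial 2, Arterial 3, Arterial 4, Portal 2 and Portal 3 (5 many-gene livers), out of 13 libraries in the series. The members were chosen by these measured numbers of detected genes, so differences between both sets are given as a description, without a test. Portal 1 had 13581 genes above 0, Portal 4 had 14264, and Arterial 1, just inside the limit, had 15460. Arterial 2 was just outside it with 15831, and Portal 2, Portal 3, Arterial 3 and Arterial 4 had 17858, 18060, 18450 and 18629.

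All libraries were bulk liver RNA-seq from female Yorkshire pigs. The infused livers had 45 min of complete vascular exclusion, then 3 M human bone marrow-derived stromal cells per kg body weight through the hepatic artery (arterial infusion, 4 libraries) or the portal vein (portal infusion, 4 libraries), and were sampled after 6 h of reperfusion. The 3 ischemic controls had the same ischemia and reperfusion without cells, and the 2 baseline libraries were taken before exclusion. The labels number the livers within each group but do not name the pig or the biopsied lobe, so p-values measure the spread between these samples. The infused cells were human and the reads were mapped to pig genes. Whether reads of the human cells were counted at conserved genes was not tested.

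Warm ischemia stops oxidative metabolism in hepatocytes, and reperfusion is known to switch on immediate early transcription factors, heat shock chaperones, the unfolded protein response, hypoxia-inducible genes and chemokines. Most liver RNA comes from hepatocytes, which make the plasma proteins and lipoproteins. How many genes are seen in a library also depends on how many different RNA molecules were turned into sequence. The protein subunits of a complex such as the ribosome are assembled in fixed proportions, which need not hold for their RNA. Both kinds of measure are given here side by side.

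The 3 few-gene livers lacked genes at the low end of the count scale. In Portal 1, 322 of the detected genes had 1 to 9 reads (2.37%), in Portal 4 there were 492 (3.45%), and in Arterial 1 there were 887 (5.74%). Arterial 2 lay between both sets with 1744 (11%). The other 4 many-gene livers had 21.8% to 23.5% of their detected genes at 1 to 9 reads, and the controls and baseline livers had 22.3% to 26.4%. The few-gene livers held more genes at 20 to 49 reads than the other infused livers, 1909 to 2017 against 1534 to 1659.

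Depth did not order the livers in the same way. Total counts were 20563848, 21444917 and 30260803 in Portal 1, Portal 4 and Arterial 1, and 24339939 to 35949178 in the many-gene livers. Control 2 had the smallest total, 18975413, and still had 16993 genes above 0 with 22.4% of them at 1 to 9 reads. At the number of reads of Control 2, 13572, 14252 and 15385 genes were expected in Portal 1, Portal 4 and Arterial 1 and 15704 to 18382 in the many-gene livers. Counting only genes with 10 or more reads removed the separation: Arterial 1 then had 14573, more than any many-gene liver (13822 to 14489), while Portal 1 and Portal 4 had 13259 and 13772.

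**Figure D1:**
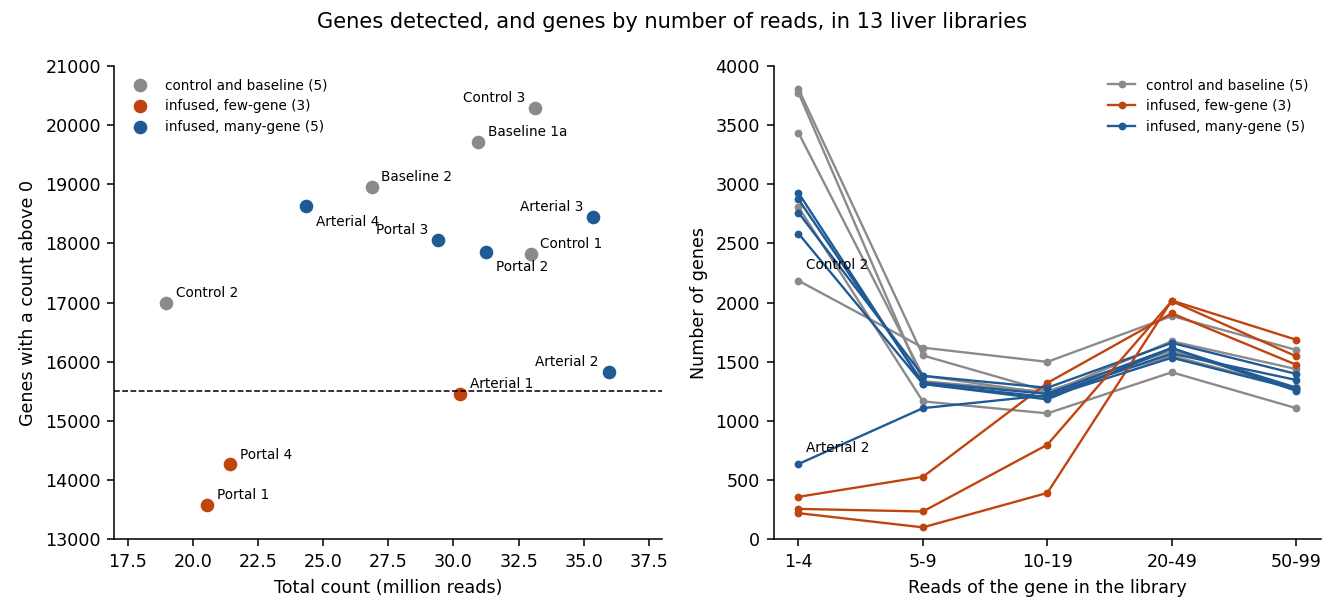
Left, genes with a count above 0 against total count in M reads for the 13 libraries, with the limit as a dashed line: Arterial 1 lies just below it at 15460 genes and Arterial 2 just above at 15831. Right, the number of genes in each range of reads, 1 line per library: the 3 few-gene lines start at 221 to 359 genes with 1 to 4 reads and Arterial 2 at 636, whereas the other lines start at 2185 or above.

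Genes with many reads elsewhere were also missing. Of 8572 genes with a mean of 200 or more reads in the many-gene livers, 167 had no read in Portal 1, 25 in Arterial 1 and 18 in Portal 4, against 0 in each many-gene liver, 4 in Control 2, 1 in Baseline 2 and 0 in the other libraries not split. Among 2822 genes with a mean of 50 to 200 reads there, 19.6% had no read in Portal 1, 7.97% in Portal 4 and 5.39% in Arterial 1, with at most 0.283% in a many-gene liver and 1.06% in Control 2. The many-gene means define these classes, so that set has few zeros by construction. Arterial 1 and Portal 1 shared 11 missing genes of the higher class, 44% of those of Arterial 1 and 6.59% of those of Portal 1. Portal 1 and Portal 4 shared 9, or 5.39% and 50% of their missing genes. Only CRYBG1 and MKRN2 had no read in all 3.

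CRYBG1, a crystallin-domain protein, had 354, 564, 165, 386 and 446 reads in Arterial 2, Arterial 3, Arterial 4, Portal 2 and Portal 3. It had 645 and 680 reads at baseline, 261 and 268 in Controls 1 and 3, and 4 in Control 2. MKRN2, a zinc-finger ubiquitin ligase, had 152, 374, 191, 198 and 242 reads in the many-gene livers, 193 to 339 in the baseline livers and Controls 1 and 3, and 18 in Control 2. The libraries without reads were thus the 3 few-gene livers, and the next lowest for both genes was Control 2.

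Hepatocyte markers were abundant in both sets, as the tissue label says, at levels that differed by gene. ALB, the main plasma protein, had 37609, 18406 and 17175 CPM (reads of a gene per M reads of the library, scaled by TMM over the 8 infused livers) in Arterial 1, Portal 1 and Portal 4, against 30486 to 61778 in the many-gene livers. HNF4A, the nuclear receptor of hepatocyte identity and picked after its values were seen, was at 433 ± 58.0 CPM (SD, n = 3) and 420 ± 89.6 CPM (n = 5). TTR, which carries thyroid hormone, was at 2345 ± 1085 and 1686 ± 517 CPM, and these ranges overlapped. SERPINA1, an elastase inhibitor, was at 1811 ± 256 and 2329 ± 392 CPM and APOA1, the protein of high-density lipoprotein, at 7568 ± 1750 and 3827 ± 701 CPM, without overlap and in opposite directions. Of 3 further plasma proteins taken as hepatocyte reference after their values were known, all were lower in every few-gene liver. AHSG, fetuin-A, was at 2990 ± 1354 against 7245 ± 2680 CPM. FGB, the fibrinogen beta chain, was at 9982 ± 3947 against 37756 ± 7007 CPM and TF, transferrin, at 1754 ± 886 against 6439 ± 1945 CPM. HP had no row under that name.

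Over the 11538 genes with a mean of 50 or more reads in the 8 infused livers, the mean log2 CPM of the few-gene livers minus that of the many-gene livers had a median of -0.15. It was positive for 5223 genes (45.3%), and 4981 genes (43.2%) differed by 1 or more either way. Without overlap between the sets, 2151 genes were higher in the few-gene livers (18.6%) and 2304 were lower (20%). The rule that split the livers uses the same counts, and these shares stand as the background for the lists that follow. In bulk tissue, fewer cells of a type and less RNA per cell cannot be told apart.

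The genes with the largest positive differences were, apart from HSPB1, little expressed in the many-gene livers. The filter used the mean over all infused livers, so reads in the few-gene livers alone could carry a gene past it. Ranking by log2 difference favours such genes, and low counts in the many-gene livers follow in part from that choice. C20orf204 had 238, 927 and 340 reads in Arterial 1, Portal 1 and Portal 4 and 0 to 29 in the many-gene livers, a log2 difference of 6.09. GALR3, a galanin receptor, had 108, 290 and 150 reads against 0 to 5 (5.84). MROH6, CCER2, FBXL16, FITM1, STMN3 and CEP131 followed with log2 differences of 5.26, 5.20, 5.11, 4.66, 4.08 and 3.98. FITM1 acts in lipid droplet formation, STMN3 in microtubule turnover and CEP131 at the centrosome. Only genes without overlap were ranked, so by that choice all few-gene livers lay above all many-gene livers for each of these 8 genes. A row named U6 (4.97) is 1 of 876 rows with that name and ssc-mir-4331-2 (4.47) is a short precursor, so their reads are uncertain in a poly-A library. EPO and HSPB1 completed this set and are described with the hypoxia and heat shock genes.

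Genes with the largest negative differences were near 0 in the few-gene livers. This also follows in part from the ranking, since reads in the many-gene livers alone could carry a gene past the filter. Where all 3 few-gene livers had no read, a floor of 3 counts per library gives a bound: CRYBG1 was at least 102-fold lower, MKRN2 at least 62.3-fold, LRRC8B (a subunit of volume-regulated anion channels) at least 39.3-fold, TBPL1 at least 36.1-fold, TRIM68 at least 30.3-fold, EMID1 at least 29.4-fold, TLR7 (the endosomal RNA receptor) at least 26.3-fold and SNAP47 at least 24.5-fold. These were 8 of 16 such genes. ERG, an endothelial transcription factor, had 32, 0 and 0 reads in Arterial 1, Portal 1 and Portal 4 and 242 to 485 in the many-gene livers. TRNT1, which adds CCA ends to tRNA, had 15, 0 and 0 against 175 to 307. XIRP1 had 10, 0 and 17 against 131 to 1961, and FICD, which modifies the chaperone BiP, had 4, 38 and 103 against 873 to 2170. In Control 2 the same 12 genes had 3 to 42 reads, and in Controls 1 and 3 they had 74 to 1841.

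Functional classes were compared through 45 lists, 43 of which had 3 or more members with a mean of 50 or more reads. A list was called where its median difference was at least 0.5 either way and 3 of 4 members or more had that sign. This gave 9 lower lists and 1 higher list. Each of the 10 had members of the other sign. Beside each list stands its median log2 fold change from baseline to ischemic control, the study's own contrast for injury, which shares no sample with the infused livers. Over all genes that median was 0.01, and 0.05 without Control 2.

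**Figure D2:**
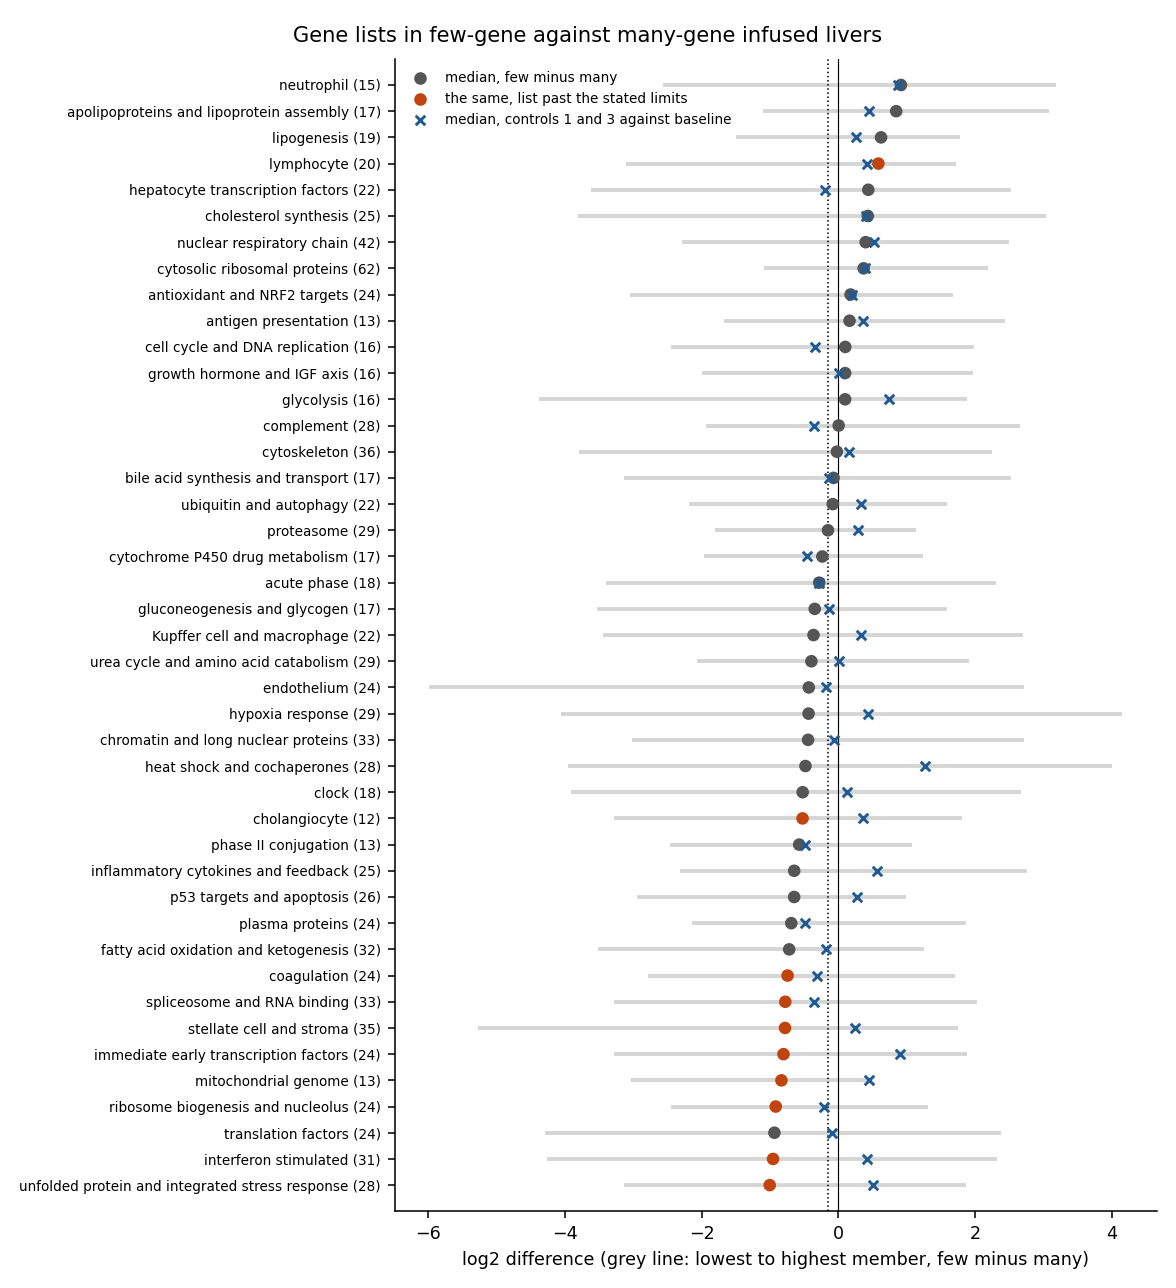
Median log2 difference of few-gene minus many-gene livers for 43 gene lists (circles, red where the list was called, member number in brackets), the range of their members (grey) and the median change of the same genes from baseline to Controls 1 and 3 (crosses). The dotted line is the median of all 11538 genes, -0.15. The heat shock, immediate early, unfolded protein, interferon and hypoxia lists are among those with circles left of 0 and crosses right of it.

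Genes of the early stress response had negative medians in the few-gene livers and positive ones from baseline to ischemic control. Of 24 immediate early transcription factors, 19 were lower and 5 higher (median -0.80), with 6 lower without overlap (25%, against 20% of all genes) and 0 higher. The same 24 had a median of 0.97 from baseline to control, 0.91 without Control 2, with 22 positive. ATF3, a stress-induced repressor also counted in the unfolded protein list, had 5.15, 35.6 and 17.6 CPM in Arterial 1, Portal 1 and Portal 4 and 548, 97.8, 66.5, 134 and 81.4 CPM in Arterial 2, Arterial 3, Arterial 4, Portal 2 and Portal 3 (log2 difference -3.14). FOSB, part of the AP-1 dimer, had 0.847, 1.74 and 7.47 CPM against 233, 36.1, 2.50, 13.4 and 19.9 CPM. Arterial 2 held the highest value of both, and FOSB overlapped because Arterial 4 was low. MYC was at 20.3 ± 8.85 and 114 ± 56.4 CPM. The list median was -0.51 without Arterial 1, -0.52 without Arterial 2 and -1.21 without Portal 1. FOSL1 went the other way, with 21.4, 28.7 and 2.39 CPM against 1.89 to 7.32 CPM.

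The unfolded protein and integrated stress response, which halts translation and raises the chaperones of the endoplasmic reticulum, had the lowest list median, -1.004 with 22 of 28 members lower. Without overlap, 15 members were lower (53.6%, against 20% of all genes) and 3 higher (10.7%, against 18.6%). HSPA5, which encodes BiP, had 224, 204 and 493 CPM in Arterial 1, Portal 1 and Portal 4 and 2613, 1350, 2387, 2369 and 2692 CPM in Arterial 2, Arterial 3, Arterial 4, Portal 2 and Portal 3 (log2 difference -2.97). All few-gene livers were thus below all many-gene livers. DNAJB9, a cochaperone of BiP, was at 39.4 ± 29.6 against 208 ± 39.7 CPM. SDF2L1, also a resident of the endoplasmic reticulum, was the reverse at 169 ± 71.6 against 46.2 ± 18.2 CPM. From baseline to control these 28 genes had a median of 0.28, and 0.51 without Control 2.

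Heat shock genes lay at both ends. HSPB1, the small heat shock protein HSP27, had 1760, 3855 and 701 CPM in Arterial 1, Portal 1 and Portal 4 and 294, 40.2, 398, 40.5 and 64.9 CPM in the many-gene livers, a log2 difference of 4.01. TCP1, a subunit of the cytosolic chaperonin, had 3.55, 1.51 and 16.1 CPM against 49.5 to 91.9 CPM (-3.96). Neither gene overlapped between the sets. Of 28 members, 8 were higher and 20 lower (median -0.48), below the limits for a call. From baseline to control the median was 1.05, and 1.26 without Control 2, with HSPB1 at 5.24 and TCP1 at -0.69. In the edgeR test of that contrast 9 of the 29 heat shock genes tested had an unadjusted p under 0.05, beside 720 of all 16481 genes. Of the 29, 0 passed the adjusted threshold.

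Hypoxia-inducible genes followed no common direction, with 11 higher and 18 lower of 29 (median -0.44). EPO, the red cell hormone, had 173, 156 and 110 reads in Arterial 1, Portal 1 and Portal 4 and 7, 26, 31, 0 and 3 reads in Arterial 2, Arterial 3, Arterial 4, Portal 2 and Portal 3, a log2 difference of 4.16. It also had 101, 88 and 62 reads in the controls and 4 and 6 at baseline. EDN1, the vasoconstrictor endothelin, had 0.782, 0 and 0 CPM against 0.708 to 7.21 CPM. In the glycolysis list, whose members respond to hypoxia in part, 8 were higher and 8 lower: SLC16A3, the lactate exporter, had a difference of 1.89 and PGAM1, phosphoglycerate mutase, -4.38.

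Inflammatory genes were mixed. Cytokines and their feedback regulators had a median of -0.65 with 16 of 25 lower, from CCL2, the monocyte chemokine, at -2.32 to CSF3, the granulocyte growth factor, at 2.77. Both overlapped between the sets. Interferon-stimulated genes were a called list (median -0.95, 24 of 31 lower). Of the 31 genes 6 were lower without overlap (19.4%), a share near the 20% of all genes. Portal 3 had the highest CPM of all infused livers for 24 of the 31. RSAD2, an antiviral enzyme, had 3.75, 0 and 0.945 CPM in Arterial 1, Portal 1 and Portal 4 and 3.38, 6.46, 8.31, 4.91 and 313 CPM in Arterial 2, Arterial 3, Arterial 4, Portal 2 and Portal 3. RIGI, a sensor of viral RNA, had 428 CPM in Portal 3 and 36.4 to 43.6 CPM in the other many-gene livers, and IFIT1 had 238 against 7.25 to 16.7 CPM. Without Portal 3 the list median was -0.73. IFI6 was higher on average, with 509, 2498 and 1832 CPM in the few-gene livers and 126 to 538 CPM in the others.

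**Figure D3:**
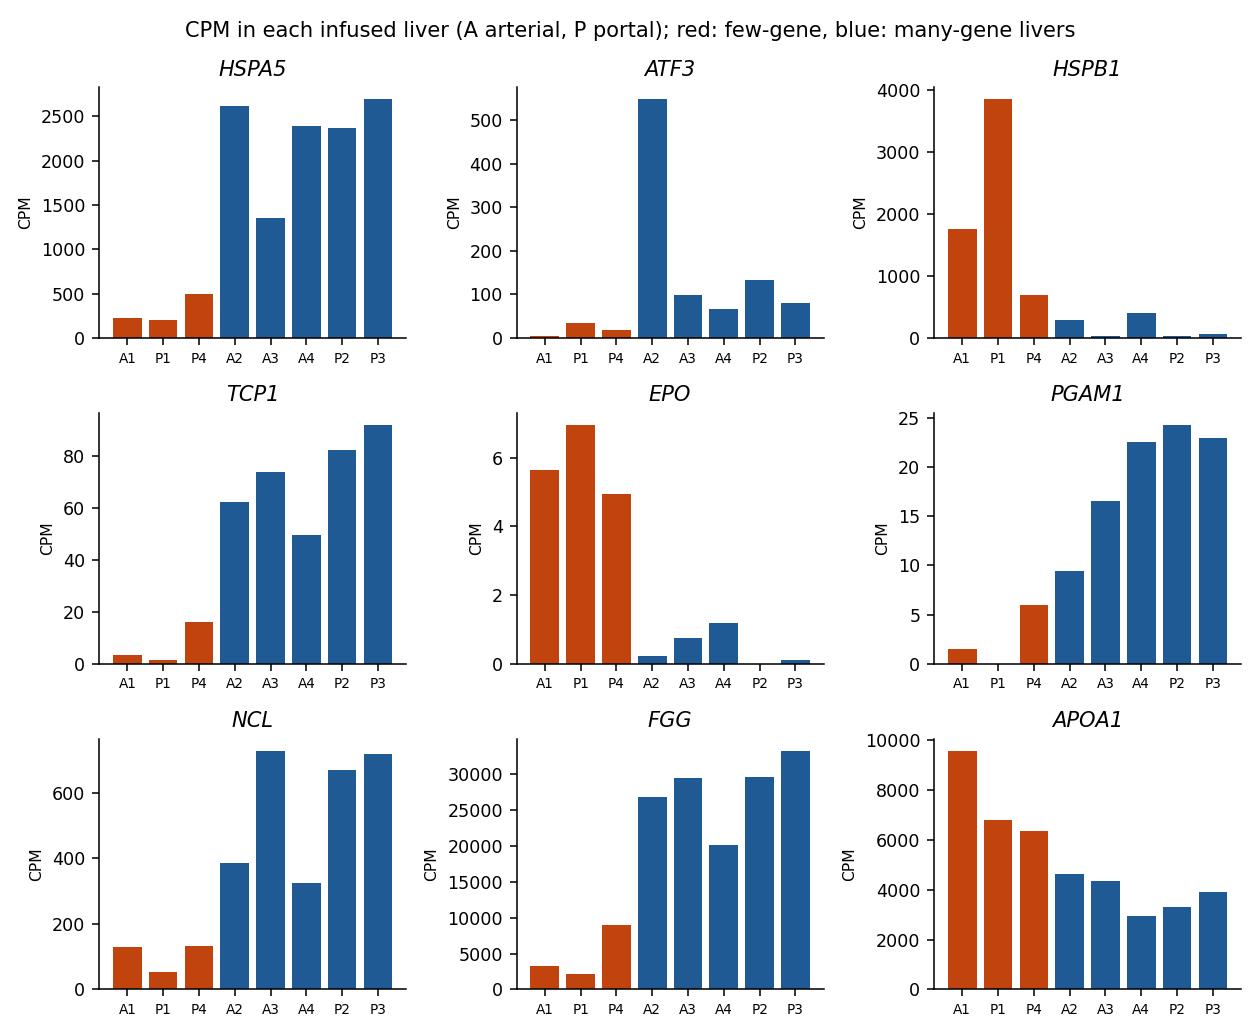
CPM of 9 genes in each infused liver, few-gene livers in red (A1, P1, P4) and many-gene livers in blue. HSPA5, ATF3, TCP1, PGAM1, NCL and FGG are below every many-gene liver in all few-gene livers, and HSPB1, EPO and APOA1 are above.

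Genes for handling RNA and building ribosomes were mostly lower in the few-gene livers. Of 33 spliceosome and RNA-binding genes, 29 were lower (median -0.78). Of the 33, 20 were lower without overlap (60.6%, against 20% of all genes) and 3 higher (9.09%, against 18.6%). SRSF2, a splicing regulator, had 6.32, 2.41 and 5.49 CPM in Arterial 1, Portal 1 and Portal 4 and 38.2, 64.3, 26.0, 39.5 and 59.2 CPM in the many-gene livers. RBM39 (11.2 ± 6.33 against 88.1 ± 11.9 CPM) and HNRNPH1 (log2 difference -2.95) were likewise lower in every few-gene liver. SNRNP70, the protein of the U1 particle, was higher, with 323, 580 and 296 CPM against 75.7 to 134 CPM. The list also had a negative median from baseline to control, -0.36, and -0.35 without Control 2.

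Ribosome biogenesis and nucleolar genes had a median of -0.92, with 19 of 24 lower, and 37.5% of the list lower without overlap against 20% of all genes. NCL, nucleolin, had 130, 53.9 and 133 CPM in Arterial 1, Portal 1 and Portal 4 and 385, 728, 325, 670 and 719 CPM in the many-gene livers. MYC belongs to this list too, and POLR1B, a subunit of RNA polymerase I, differed by -1.90. BOP1, a ribosome assembly factor, was higher at 149 ± 53.4 against 58.7 ± 11.3 CPM. The list median was -0.30 for the arterial livers alone, -1.29 for the portal livers alone and -0.58 without Portal 1.

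Translation factors ranged over more than 6 log2 units. EIF5B, which joins the ribosomal subunits, had 1209, 878 and 1054 CPM in Arterial 1, Portal 1 and Portal 4 against 170 to 258 CPM (log2 difference 2.39). EIF2S1, the subunit phosphorylated in the integrated stress response, had 8.86, 0.713 and 15.4 CPM against 63.7 to 127 CPM (-4.29). Of 24 members 17 were lower (median -0.94), short of the share set for a call. Of the same 24, 14 were lower and 3 higher without overlap, beside 20% lower and 18.6% higher of all genes.

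Cytosolic ribosomal proteins had 40 of 62 members higher and 22 lower, with a median of 0.37. RPLP2, a stalk protein, had 1255, 1876 and 1133 CPM in Arterial 1, Portal 1 and Portal 4 and 238 to 358 CPM in the many-gene livers. RPL23A, at the exit of the large subunit, had 91.3, 77.3 and 127 CPM against 148 to 271 CPM. Subunits of the same particle were thus apart in opposite directions. Of the 62, 21 were higher and 6 lower without overlap, beside 18.6% higher and 20% lower of all genes. Near-identical copies of these genes exist in the genome, so single values are uncertain.

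This spread within a complex was measured in each library as the SD, over the member genes, of the log2 CPM minus the mean of the (other) many-gene livers, scaled over all 13 libraries. For ribosomal proteins it was 0.77, 0.93 and 0.68 in Arterial 1, Portal 1 and Portal 4 and 0.12 to 0.24 in the many-gene livers. Control 2 had 0.78, and the other controls and the baseline livers had 0.19 to 0.26. Proteasome genes gave 0.61 to 1.19 in the few-gene livers, 0.14 to 0.32 in the many-gene livers and 1.02 in Control 2. Nuclear respiratory chain genes gave 0.87 to 1.51, 0.18 to 0.31 and 1.08. Cytochrome P450 genes gave overlapping spreads of 1.12 to 2.02 and 0.59 to 1.24, with 1.52 in Control 2. The other controls and the baseline livers had 0.79 to 1.61 for these genes. What sets the spread of a list was not tested. The spread over all 11538 genes was 1.37 to 2.08 in the few-gene livers, 0.52 to 0.82 in the many-gene livers and 1.32 in Control 2.

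**Figure D4:**
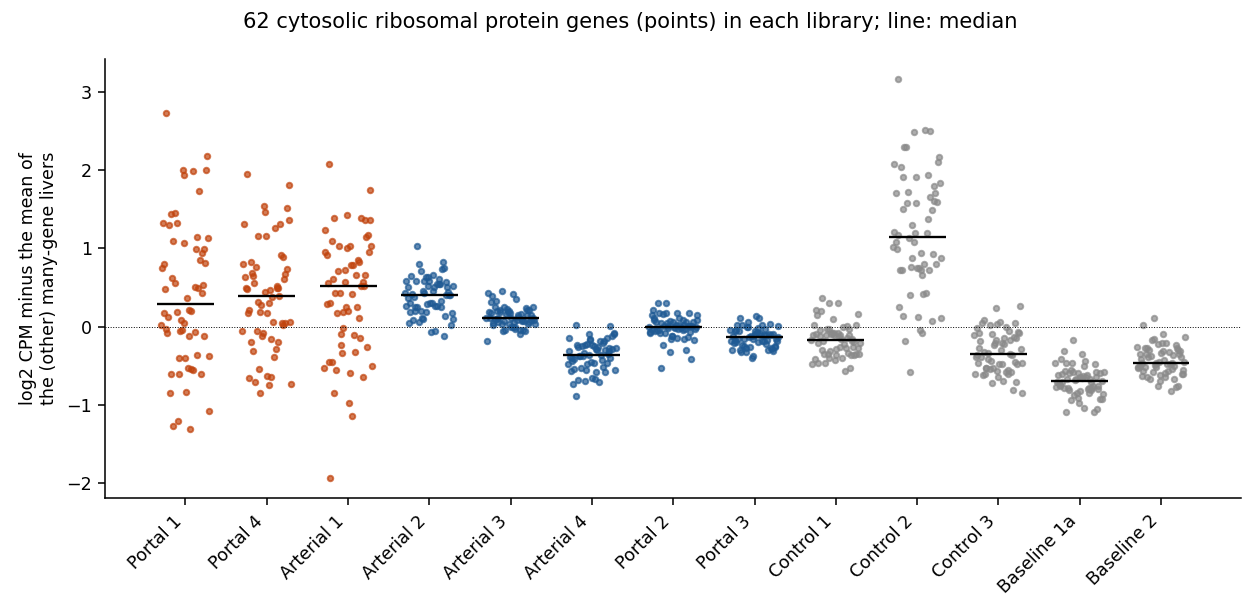
Log2 CPM of 62 cytosolic ribosomal protein genes in each library minus the mean of the many-gene livers (for a many-gene liver, of the other 4). Points are genes and lines are medians. Portal 1, Portal 4, Arterial 1 and Control 2 are spread wider (SD 0.68 to 0.93) than the other 9 libraries (SD 0.12 to 0.26).

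The mitochondrial genome codes for 13 proteins of the respiratory chain from a common transcript for each strand. Of these, 11 were lower in the few-gene livers and 2 higher (median -0.83), and 3 were lower without overlap, 23.1% against 20% of all genes. ND5 had 368, 331 and 4197 CPM in Arterial 1, Portal 1 and Portal 4 and 14705, 4736, 4207, 6199 and 6493 CPM in the many-gene livers, so that Portal 4 lay just below Arterial 4. ND4L and ND4 had log2 differences of -2.52 and -1.82, and they overlap in the annotation (MT, 11069 to 11365 and 11359 to 12736, Sscrofa11.1). ND3 was higher on average, 1482 ± 618 against 1109 ± 589 CPM, with overlap. Mitochondrial genes took 7.46%, 5.58% and 16.0% of the reads in Arterial 1, Portal 1 and Portal 4 and 7.57% to 22.0% in the many-gene livers. The list median depended on single livers: it was -0.40 without Portal 1, -0.50 without Arterial 2, -1.32 without Arterial 3 and -1.46 without Portal 4. In the nuclear part of the chain 29 of 42 were higher, from UQCRC2 at -2.29 to NDUFS8 at 2.50.

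Secretory and metabolic functions of the hepatocyte were divided in the same way. Coagulation genes were a called list (median -0.74, 19 of 24 lower). FGG, the fibrinogen gamma chain, had 3283, 2146 and 9030 CPM in Arterial 1, Portal 1 and Portal 4 and 26825, 29499, 20130, 29627 and 33272 CPM in the many-gene livers. PROS1, protein S, and F3, tissue factor, differed by -2.45 and -2.14, the latter with overlap. F7, the partner of tissue factor, was higher, with 161, 440 and 305 CPM against 69.9 to 107 CPM. Of the 24 genes 7 were lower without overlap (29.2%) and 4 higher (16.7%), against 20% and 18.6% of all genes.

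Apolipoproteins and lipoprotein assembly genes had a median of 0.85 with 10 of 17 higher. Of the 17, 8 were higher without overlap, beside 18.6% of all genes. APOA4 had 4968, 10800 and 974 CPM in Arterial 1, Portal 1 and Portal 4 against 118 to 1003 CPM. APOB, the large scaffold of very-low-density lipoprotein, had 1269, 684 and 1402 CPM against 1694 to 3114 CPM. APOC3, a small apolipoprotein singled out after its values were seen, had 23209, 34128 and 23262 CPM against 3260 to 6028 CPM. Lipogenesis genes had 14 of 19 higher (median 0.62), led by ACACA, acetyl-CoA carboxylase, at 1.78, with ELOVL5 at -1.49. Fatty acid oxidation genes had 21 of 32 lower (median -0.72), from BDH1, of ketone body synthesis, at -3.51 to SLC27A5, a bile acid and fatty acid ligase, at 1.26.

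Plasma proteins had 16 of 24 lower (median -0.69). Of the 24, 9 were lower and 4 higher without overlap, beside 20% lower and 18.6% higher of all genes. CPN1, the catalytic subunit of carboxypeptidase N, differed by -2.14 and IGFALS, which holds IGF in plasma, by 1.87. In the acute phase list CP, ceruloplasmin, was at 247 ± 299 against 1656 ± 660 CPM and HAMP, hepcidin, at 571 ± 89.1 against 137 ± 81.2 CPM, with a median of -0.28. Complement genes had 14 higher and 14 lower, from C7 at -1.93 to C8G at 2.66. Drug-metabolising cytochrome P450 genes had a median of -0.23 (7 higher, 10 lower), from CYP3A29 at -1.97 to POR, their reductase, at 1.24. In the bile acid list CYP7A1, the rate-limiting enzyme of synthesis, was at -3.14 and NR0B2, its repressor, at 2.53. Cholesterol synthesis enzymes ran from SQLE at -3.81 to MVD at 3.04. The ends of the cholesterol list were thus both enzymes of the same pathway.

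The remaining lists were as wide. Clock genes had a median of -0.52, with the core repressor NR1D1 at -3.91 and the clock output gene DBP at 2.67. Chromatin and long nuclear proteins had 22 of 33 lower, and NCOR1, a corepressor, was the highest of the others with 317, 343 and 414 CPM in Arterial 1, Portal 1 and Portal 4 against 47.3 to 66.3 CPM. Targets of p53 and apoptosis genes had 19 of 26 lower (median -0.65), from CASP8 at -2.94 to BAX at 0.99. Proteasome genes ran from PSMA5 at -1.81 to PSMC5 at 1.14 with a median of -0.15, the same as that of all genes. Hepatocyte transcription factors had 13 of 22 higher, from ONECUT2 at -3.62 to NR0B2. Cytoskeleton genes had 18 higher and 18 lower, from TUBB4B, a tubulin, at -3.79 to CDC42EP5 at 2.24. ACTB, the cytoskeletal actin often used as a reference and singled out after its values were seen, had 125, 127 and 191 CPM in Arterial 1, Portal 1 and Portal 4 against 585 to 1356 CPM. Urea cycle and amino acid genes had 18 of 29 lower, from SLC25A13 at -2.07 to ASL, which makes arginine, at 1.91. Phase II conjugation genes had 9 of 13 lower (median -0.57) and genes of glucose and glycogen synthesis 12 of 17 (-0.35). The medians of the antioxidant, antigen presentation, cell cycle, growth hormone and autophagy lists lay between -0.08 and 0.18.

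Markers of other liver cells gave 2 lower lists and 1 higher list. Stellate cell and stromal genes had 27 of 35 lower (median -0.78), with 28.6% of the list lower without overlap against 20% of all genes. ACTA2, the smooth muscle actin of activated stellate cells, had 20.4, 17.2 and 18.2 CPM in Arterial 1, Portal 1 and Portal 4 and 220, 79.2, 62.2, 291 and 153 CPM in the many-gene livers. FBN1, fibrillin, had 0, 0 and 2.52 CPM against 4.23 to 28.1 CPM. RGS5, a pericyte gene, was at 0 to 1.08 against 0.722 to 8.54 CPM. TIMP1, an inhibitor of matrix proteases, was at 93.8 to 230 CPM against 23.3 to 158 CPM. The list median was -0.34 without Portal 4 and -0.40 without Arterial 4. The summed CPM of the 37 genes, scaled over 13 libraries, was 1170 to 2000 in the few-gene livers and 1950 to 3740 in the many-gene livers.

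Cholangiocyte genes, for the bile duct lining, had 9 of 12 lower (median -0.52), 16.7% of the list without overlap against 20% of all genes. CFTR, with 21, 0 and 20 reads in Arterial 1, Portal 1 and Portal 4, was at -3.27. EPCAM was at -2.39 with overlap, CD24 at -1.67 and SLC4A2, the bicarbonate exchanger, at 1.81. KRT19, KRT7 and SOX9 were at 0.25, -0.44 and -0.54, all with overlap. The summed CPM of the list overlapped, 398 to 575 against 387 to 609. The list median was -0.02 in the portal livers alone and -0.33 without Arterial 1 or Arterial 4. Lymphocyte genes had 15 of 20 higher (median 0.59). Of these 3 were higher without overlap, 15% of the list against 18.6% of all genes. CD3E, of the T cell receptor complex, had 7.85, 29.8 and 14.3 CPM in Arterial 1, Portal 1 and Portal 4 against 2.48 to 7.65 CPM. NKG7, of cytotoxic granules, was at 29.4 ± 13.3 against 10.0 ± 3.44 CPM and the granule protease GZMB differed by 1.59 with overlap. CD2, an adhesion receptor of the same cells, differed by -3.11. The summed CPM overlapped, 178 to 225 against 136 to 238, and the arterial livers alone gave a median of 0.10.

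Neutrophil genes had a positive median, 0.92, with RETN at 3.19 with overlap. Their sum was lower in every few-gene liver, 669 to 925 against 1370 to 1950 CPM. That sum includes SOD2, which hepatocytes also express, at 167 ± 53.8 against 974 ± 214 CPM. It also includes AQP9, at 218 ± 95.9 against 399 ± 79.5 CPM. SOD2 and AQP9 had the highest mean CPM of the list in the many-gene livers, and a sum without them was not computed. SOD2 alone had 675 to 1232 CPM in the many-gene livers, so the lower sum is not read as less neutrophil RNA. Kupffer cell genes summed to 2540 to 3220 against 2810 to 3740 CPM, from MSR1 at -3.44 to MARCO, a scavenger receptor, at 2.69. Endothelial genes summed to 701 to 1000 against 605 to 1300 CPM, from ERG at -5.98 to EGFL7 at 2.72. Erythroid and platelet lists had 2 members each above the limit. Erythroid genes summed to 168 to 574 against 38.3 to 491 CPM and platelet genes to 11 to 48 against 9.06 to 11.8 CPM. No marker in these 8 lists was at 0 in all infused livers. The part of cell composition in the list medians was not tested.

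Gene size ran with the difference. For 9610 genes (83.3%) a genomic span was matched by symbol in RefSeq (Sscrofa11.1), and these were put in 10 groups of 961 by span. The median difference was 0.51 in the group of shortest genes, where 65.2% were higher, and was -0.50 in the groups with median spans of 46631 and 68049 bases and -0.44 in the longest. Each few-gene liver showed it: the shortest group had medians of 0.59, 0.75 and 0.43 in Arterial 1, Portal 1 and Portal 4, and the longest -0.30, -0.45 and -0.16. The many-gene livers lay between -0.09 and 0.10 in the shortest group and -0.09 and 0.31 in the longest. The same order was seen, smaller, from baseline to Controls 1 and 3 (0.33 to -0.10) and, larger, between Control 2 and the other controls (0.93 to -0.41). Across genes Spearman's rho of difference and span was -0.25. Transcript length and base composition were not analysed here.

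**Figure D5:**
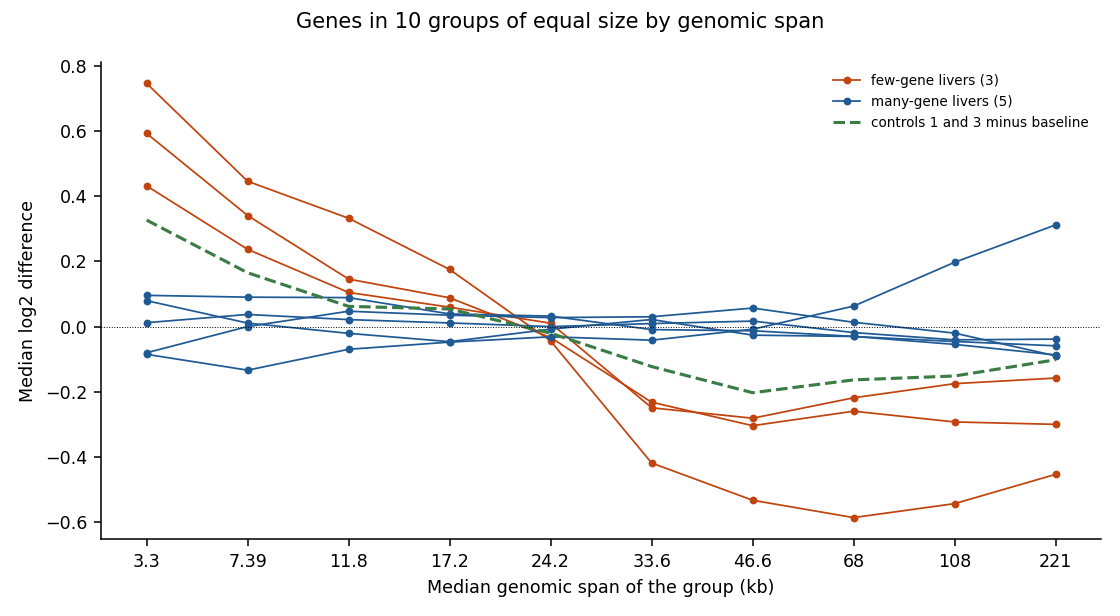
Median log2 difference in 10 groups of 961 genes ordered by genomic span in kb: few-gene livers (red) and many-gene livers (blue) against the mean of the (other) many-gene livers, and Controls 1 and 3 against baseline (dashed). The 3 red lines run from 0.43 to 0.75 down to -0.45 to -0.16.

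Neighbouring genes differed alike. Across 9589 pairs of adjacent genes of the table on the same chromosome, the correlation of the differences was r = 0.22. It was 0.17 at 10 genes apart, 0.10 at 50 and 0.02 at 200. From baseline to Controls 1 and 3 the values were 0.12, 0.06, 0.03 and 0.02, and for Control 2 minus Controls 1 and 3 they were 0.19, 0.14, 0.09 and 0.01. Rows without a gene symbol also differed from named rows: 754 of 1334 were higher in the few-gene livers (56.5%) against 4469 of 10204 with a symbol (43.8%).

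The difference was set beside contrasts of the control and baseline livers, which share no sample with it. All correlations are across 11538 genes, which are not independent and share their level and length between contrasts. The log2 fold change from baseline to control had r = 0.64 with the few-gene minus many-gene difference, and 75.2% of genes had the same sign. For Controls 1 and 3 alone against baseline r was 0.44, with 67.6% of the same sign. For Control 2 minus Controls 1 and 3, livers with 1 treatment, r was 0.62, with 74.1%. For the lists above, signs were compared with the change from baseline to all controls. The same sign was found for 29.2% of immediate early genes, 39.3% of heat shock genes and 50% of unfolded protein response genes. In that contrast it was also found for 91.7% of ribosome biogenesis, 88.2% of apolipoprotein and 81.8% of spliceosome genes.

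The study's own groups, which the labels give, were tested. The number of genes above 0 was 17093 ± 1679 after arterial and 15941 ± 2349 after portal infusion (SD, n = 4 each), a difference of 1152 that the spread between livers covers (two-sided exact permutation test over 70 splits, p = 0.457). Counting genes with 10 or more reads, the difference was 647 (exact permutation test, p = 0.0286, the smallest this design allows), and all arterial livers lay above all portal livers. Adjusted over the 4 counts compared (Benjamini-Hochberg), this exact permutation p was 0.114. With the quasi-likelihood F-test of edgeR and p-values adjusted by Benjamini-Hochberg across 16481 genes, 0 genes (0%) passed between arterial and portal infusion, with 396 at an unadjusted p under 0.05. Between ischemic control and baseline 0 of 16481 (0%) passed, with 720 at an unadjusted p under 0.05, and DESeq2 called 1 and 5 genes. The paper itself reported genes that differed between baseline and 6 h of reperfusion by DESeq2 at an adjusted p under 0.05. EPO, CXCR4 and GZMB were among the higher ones. None of the listed genes passed in either comparison by edgeR, which is another test than the paper's and here shared its spread over all 13 libraries. The common biological coefficient of variation in this fit was 0.73, and it was 0.64 without Portal 1.

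The medians of the 10 called lists were recomputed under 19 alternatives. Those of the immediate early, unfolded protein response, interferon, coagulation and spliceosome lists stayed at 0.5 or more in size in each of them, every liver left out in turn included, and the other 5 called lists fell under it in some. For 4 arterial livers alone, with Arterial 1 the single few-gene liver, the immediate early median was -1.56 and the unfolded protein median -1.10, and for 4 portal livers alone they were -0.50 and -1.05. RNA integrity values were not given in the sources used here, and what share of these differences belongs to tissue injury and what to RNA recovery cannot be told apart.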

How the data were processed

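Total RNA from liver biopsies was enriched for poly-A RNA, and non-directional libraries were made, so that reads of a gene and an overlapping antisense gene cannot be told apart. For extraction, the labels name the miRNeasy kit and the study's methods the NucleoSpin kit. The authors mapped reads to Sscrofa11.1 (Ensembl release 110) with HISAT2, version not given in the sources used here, and counted them per gene with featureCounts. The deposited values are raw counts for 35670 genes in 13 libraries (totals 18975413 to 35949178), with no normalization. Their totals set the counting error only. No 2 libraries agreed within sampling noise.

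Gene lists, the split by detected genes and the tests were chosen with earlier results of these data known. CPM were computed with edgeR 4.0.16 (TMM over the 8 infused livers, prior count 2 on the log2 scale). Genes with a mean of 50 or more counts were kept. A gene was called not overlapping where all 3 few-gene livers lay on 1 side of all 5 many-gene livers. Named genes were the 12 largest differences each way without overlap and with a symbol, 3 members in the direction of each called list and 1 against it, the largest members each way of other lists, and 5 hepatocyte genes. Contrasts between label groups used glmQLFit on all 13 libraries after filterByExpr, at an adjusted p of 0.05. DESeq2 1.42.0 (R 4.3.3) was an alternative. Scripts were tested on simulated counts. Rows without a symbol took one from a gene name table where possible (15623 identifiers matched). Coordinates and spans come from RefSeq, matched by symbol. The alternatives were other scalings, prior counts and filters, 1 route only, and each liver left out.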

Additional observations from a re-analysis of the deposited data

How the results depend on the processing

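The 2151 higher and 2304 lower genes without overlap were within 1.5 times under other scalings, prior counts, filters and with each liver left out (higher 2203 to 2699, lower 2255 to 3108 on leaving out a liver). They were 4071 and 4451 with arterial livers alone (1 against 3) and 3898 and 4186 with portal livers alone (2 against 2), where fewer samples have to be apart. Of 190 list medians under alternatives 183 moved by less than the spread between livers and 0 reversed, and of 410 values of the largest genes 386 did, with 0 reversed. The medians under 0.5 in size were cholangiocyte (as low as -0.02, portal alone), stellate (-0.34, without Portal 4), mitochondrial genome (-0.40, without Portal 1), ribosome biogenesis (-0.30, arterial alone) and lymphocyte (0.10, arterial alone). The median of all genes ranged from -0.29 (mean of 10 or more) to -0.04 (total counts). Genes detected by route differed by 647 at 10 or more reads (p = 0.0286, exact permutation test), by 992 at 5 or more, and by 365.2 to 1858.2 on leaving out a liver. For arterial against portal infusion, DESeq2 called 1 gene and edgeR without a filter 5. For control against baseline they called 5 and 30, against 0 in the filtered edgeR fits, leave-one-out fits included (0 to 0). The cause was not tested. Replicate numbers are shared between routes but do not pair the samples: deviations correlated at 0.54, 0.43, 0.54 and -0.07 for numbers 1 to 4, and the replicate block called 0 genes, as did the fit without it. Since the few-gene livers held few genes at 1 to 9 reads, genes at that level could not be compared.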
